A study of Homo sapiens with 4 samples.

Results

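The messages of the DNAJ co-chaperone family were followed in RNA released into culture medium. Members were all protein-coding genes whose symbol in the authors' deposited table is DNAJA, DNAJB or DNAJC followed by digits only, and 42 of the 61543 genes in the count table met this rule, 4 of class A, 12 of class B and 26 of class C. HEK293T cells, an established human embryonic kidney line, released either EPN24-Cas13d or EPN24 alone. EPN24 assembles into protein nanocages that cells secrete, and EPN24-Cas13d is the same protein fused to Cas13d, a CRISPR enzyme that binds RNA, in an assay named POND-seq that reads which RNAs leave with the cages. Each group had 2 libraries of total RNA from filtered supernatant, with ERCC spike-in RNA added to a fixed volume before extraction. The labels give no guide RNA, no Cas13d mutation and no time of harvest, and do not say how the proteins were brought into the cells. They leave unsaid whether the 2 libraries of a group stem from different cultures, so each p-value reflects library-to-library spread, which may be technical. RNA inside cages was not separated from other RNA of the medium, and more cages, more RNA per cage and RNA from dying cells cannot be told apart.

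J-domain proteins bring client proteins to HSP70 chaperones and trigger their ATP hydrolysis through a conserved histidine-proline-aspartate motif in a helical hairpin. Class A and class B members carry, beside the J domain, a glycine and phenylalanine rich stretch, and class A members also a zinc-binding region. Class C members share only the J domain, which is joined to other domains and placed in the endoplasmic reticulum, the mitochondria, vesicles, the spliceosome or the ribosome.

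Codons for that motif were found anywhere in the coding sequence (GENCODE release 29 on GRCh38) of 41 of the 42 members, DNAJB13 being the exception, and in the sequence context searched for the J domain in 38. The stretches below cover 54 coding bases around the motif, with its codons in capitals, for DNAJC5, the member with the largest increase, and for 3 pairs of relatives that moved in opposite directions. The pairs were chosen after their values were seen.
DNAJC5: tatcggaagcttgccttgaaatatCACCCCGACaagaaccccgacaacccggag
DNAJB12: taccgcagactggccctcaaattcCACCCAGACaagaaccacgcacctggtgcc
DNAJB14: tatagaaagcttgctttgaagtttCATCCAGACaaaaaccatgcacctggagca
DNAJB1: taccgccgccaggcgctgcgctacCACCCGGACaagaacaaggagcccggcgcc
DNAJB4: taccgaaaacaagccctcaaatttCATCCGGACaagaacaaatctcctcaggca
DNAJA3: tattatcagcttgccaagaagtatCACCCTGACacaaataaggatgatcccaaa
DNAJA1: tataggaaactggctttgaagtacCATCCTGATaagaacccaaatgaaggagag

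On GRCh38 these lie at chr20:63928448-63929360 on the plus strand for DNAJC5 and chr16:4434509-4437446 on the plus strand for DNAJA3, both across an intron that is left out of the printed sequence. The others each lie within a single exon, at chr10:72343382-72343435 (minus strand) for DNAJB12, chr4:99923056-99923109 (minus) for DNAJB14, chr19:14518227-14518280 (minus) for DNAJB1, chr1:78005180-78005233 (plus) for DNAJB4 and chr9:33026560-33026613 (plus) for DNAJA1. DNAJB12 and DNAJB14 were identical at 38 of 54 bases and 17 of 18 codons gave the same amino acid. Of their 16 differing bases 13 were at the third codon position, and 12 were G or C in DNAJB12 and A or T in DNAJB14, against 2 the other way. DNAJB1 and DNAJB4 differed at 22 bases, of which 16 were G or C in DNAJB1 and A or T in DNAJB4 and 1 was the other way. DNAJA3 and DNAJA1 differed at 25 bases, 9 in that direction and 10 in the other, and 9 of 18 codons gave the same amino acid.

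Gene counts came to 5097332 and 4863449 in EPN24-Cas13d, against 1830860 and 1903492 in EPN24, and ERCC transcripts took 89588 and 82049 counts in EPN24-Cas13d, against 445118 and 502789 in EPN24. Protein-coding genes took 94.0% and 93.7% of gene counts in EPN24-Cas13d, against 42.7% and 39.4% in EPN24. The 361 olfactory receptor genes, which kidney cells should not express, had 0.179 and 0.141 counts per kb in EPN24-Cas13d, against 1.85 and 1.44 in EPN24, and serve here as a measure of background reads. Of 6 marker genes of HEK293 cells 5 were higher and 1 was lower in EPN24-Cas13d, with summed levels of 2079 and 2083 CPM in EPN24-Cas13d, against 309 and 332 CPM in EPN24. VIM alone made up 1804 and 1820 CPM of these sums in EPN24-Cas13d, against 125 and 157 CPM in EPN24, and NEFM was the lower marker. Leukocyte markers summed to 3.37 and 2.27 CPM in EPN24-Cas13d and to 30.8 and 20.8 CPM in EPN24, hepatocyte markers to 7.45 and 5.03 CPM and to 38.8 and 34.6 CPM, and erythroid markers to 0.481 and 0.503 CPM and to 3.12 and 5.68 CPM. CD14 and HBA1 had 0 counts in every library and APOA1 and FGB had 0 in EPN24-Cas13d, and the part of such background in the results was not tested apart from the subtraction given with the members.

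With TMM scaling, DNAJ messages split by member. Of the 39 tested members 13 were higher in EPN24-Cas13d, 18 were lower and 8 did not pass the test (edgeR's quasi-likelihood test, Benjamini-Hochberg adjusted p under 0.05). Over all 20476 tested genes 32.6% were higher and 48.2% lower by the same rule, and over the 15507 protein-coding ones 37% and 42.9%, so the family's shares lie near those of its surroundings. The median log2 fold change of the tested members was -0.22, beside -0.96 over all tested genes. That order depended on which genes were tested. With the stricter filter of 10 counts and 10 CPM the medians were -0.58 for members and 0.015 for all genes. With background subtracted they were -0.14 and -0.11. All 13 higher and all 18 lower members had libraries that did not overlap between groups. Being called by the test makes this likely, so it adds no further support. Of the 8 uncalled members 3 did not overlap either, DNAJC6 and DNAJC30 in the higher and DNAJB13 in the lower direction. Over all tested genes, called or not, 36.8% did not overlap in the higher and 54.3% in the lower direction. Unless another scale is named, levels are CPM with TMM scaling, that is, the counts of a gene relative to the gene counts of its library after a correction for composition.

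**Figure D1:**
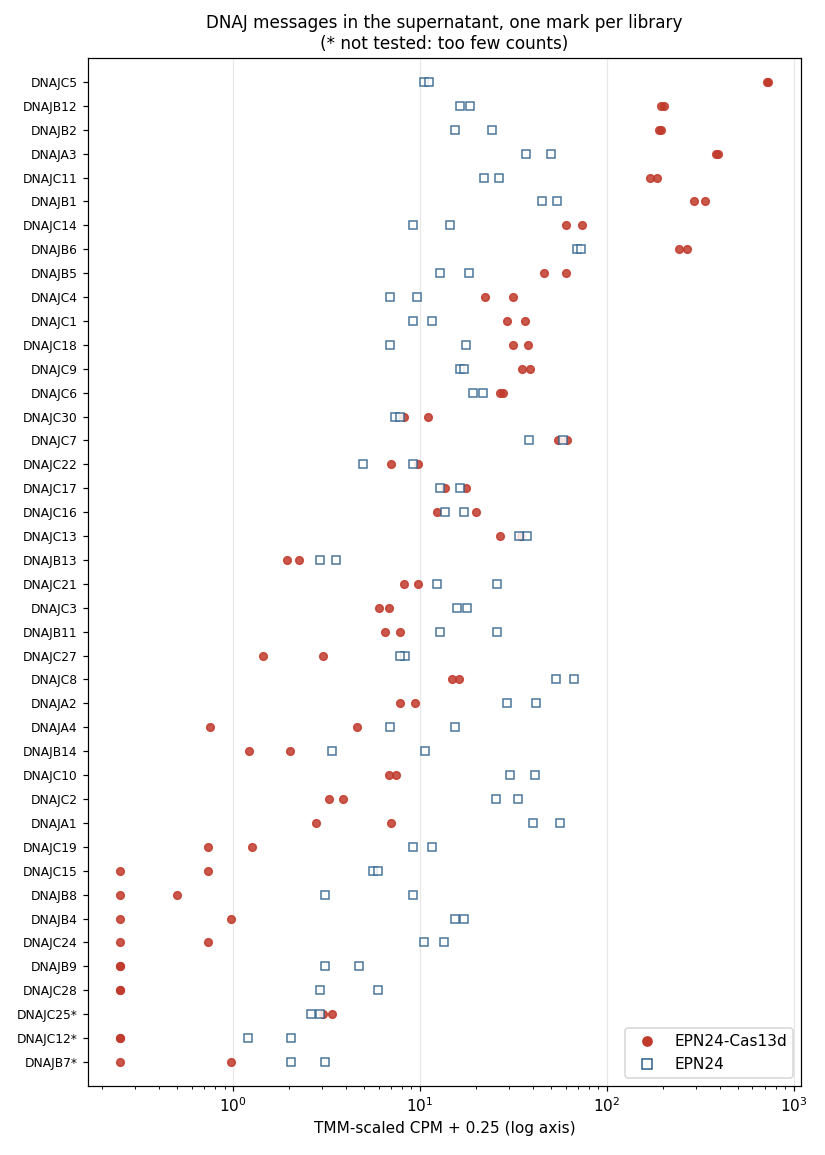
Level of each of the 42 DNAJ members in each library, in TMM-scaled CPM plus 0.25 on a log axis, with red circles for EPN24-Cas13d and open squares for EPN24, ordered by log2 fold change from top to bottom and with the 3 untested members last. DNAJC5 stands farthest apart, at 729 and 718 CPM in EPN24-Cas13d and 10.3 and 10.9 CPM in EPN24, while DNAJA1 lies the other way, at 6.73 and 2.52 CPM in EPN24-Cas13d and 40.1 and 55.9 CPM in EPN24.

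Against the ERCC spike-in, no member was called lower. With libraries scaled to ERCC totals 27 of 39 members were higher in EPN24-Cas13d, 0 were lower and 12 did not pass edgeR's quasi-likelihood test, beside 58.4% of all tested genes higher and 2.33% lower. The 18 members that were lower with TMM scaling divided into 6 that were higher and 12 that were not called. At an unadjusted p under 0.05 the number of lower members was 0 as well. Of these uncalled members 7 kept negative ERCC-scaled log2 fold changes. They were DNAJB4 (-2.07), DNAJB8 (-2.18), DNAJB9 (-5.29), DNAJC15 (-1.10), DNAJC19 (-0.40), DNAJC24 (-2.17) and DNAJC28 (-5.43), all with few counts in EPN24-Cas13d. With counts this low, the lack of a call does not show an unchanged level. All 13 higher members and all 8 uncalled ones were higher with ERCC scaling. The median log2 fold change was 3.14 for members and 2.38 for all tested genes. "Higher" and "lower" below therefore mean a higher or lower TMM-scaled level, which is not the plain share of a library's gene counts. The effective library sizes after TMM scaling were 4160077 and 3973217 in EPN24-Cas13d, against 2242060 and 2112342 in EPN24. The ERCC-scaled value is given for members whose direction turned. The authors' deposited table called 25 members higher and none lower, and its median fold change was 3.10 on the log2 scale over the tested members and 2.36 over the tested genes.

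**Figure D2:**
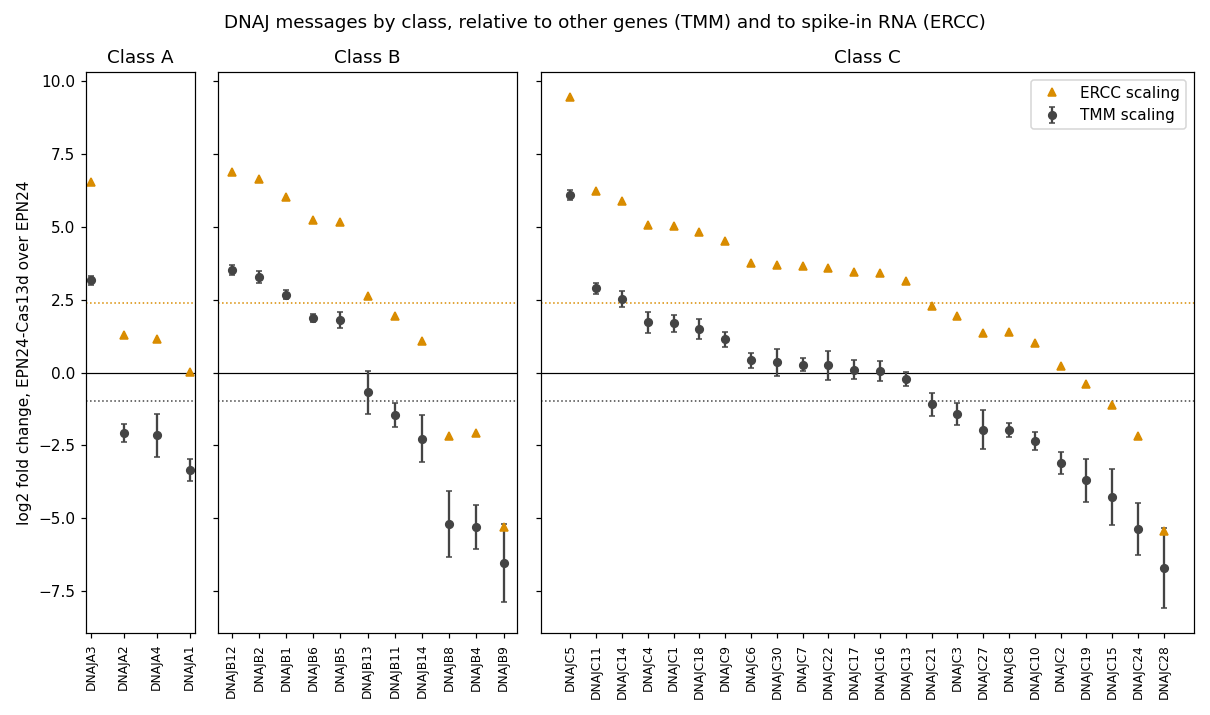
Log2 fold change, EPN24-Cas13d over EPN24, of each tested member with TMM scaling (circles, with bars of 1 approximate standard error) and with ERCC scaling (triangles). Dotted lines mark the medians of all tested genes, -0.96 with TMM and 2.38 with ERCC scaling; 11 of the 18 members lower with TMM scaling had a positive ERCC-scaled value, and the values of DNAJB9 and DNAJC28, which had 0 counts in EPN24-Cas13d, are fitted values and no bounds.

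Class A holds the general client-binding co-chaperones, and 1 of its 4 members was higher and 3 were lower. DNAJA3, which works in the mitochondrial matrix, had 383 and 392 CPM in EPN24-Cas13d, against 36.6 and 50.2 CPM in EPN24, a log2 fold change of 3.16 (approximate SE 0.15, edgeR quasi-likelihood adjusted p = 1.49e-10). Its cytosolic relatives lay the other way. DNAJA1, a farnesylated partner of the constitutive HSP70, had 6.73 and 2.52 CPM in EPN24-Cas13d, against 40.1 and 55.9 CPM in EPN24, a log2 fold change of -3.35 (SE 0.38, adjusted p = 2.06e-06). DNAJA2, which shares that role, had 9.13 and 7.55 CPM in EPN24-Cas13d, against 29.0 and 41.7 CPM in EPN24 (log2 fold change -2.07, SE 0.31). For both, every EPN24-Cas13d library lay below every EPN24 library. DNAJA4 had 4.33 and 0.503 CPM in EPN24-Cas13d, against 15.2 and 6.63 CPM in EPN24, a log2 fold change of -2.15 (SE 0.74, edgeR quasi-likelihood adjusted p = 0.0155), and was not called without EPN24 replicate 1 (or without EPN24-Cas13d replicate 2). With ERCC scaling DNAJA1 lay at 0.0051 and was not called, DNAJA2 was higher at 1.30 and DNAJA4 lay at 1.14 and was not called. With the GC trend removed only DNAJA1 of the class was lower, while DNAJA2, at -0.36, and DNAJA4, at -1.57, were not called, and DNAJA4 was not called with background subtracted either.

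Of the 11 tested class B members 5 were higher, 5 were lower and 1 was not called, at a median of -0.68 on the log2 scale. With the GC trend removed, over the same 11 members, that median was positive (0.84). It was also positive with each library left out in turn (0.062 to 1.42), over 9 or 10 members. These medians rest on fewer low members. DNAJB13 was not tested without either EPN24-Cas13d library, DNAJB9 without either EPN24 library and DNAJB8 without EPN24 replicate 1. With the stricter filter of 10 counts and 10 CPM it was 1.00 and with background subtracted 1.33, each over 7 members. DNAJB8, DNAJB9, DNAJB13 and DNAJB14, all with negative values, were not tested in these last 2 settings, so their medians rest on fewer low members. The higher ones were DNAJB1, DNAJB2, DNAJB5, DNAJB6 and DNAJB12. DNAJB1, the heat-shock induced partner of HSP70 known as HSP40, had 335 and 291 CPM in EPN24-Cas13d, against 44.6 and 54.0 CPM in EPN24, a log2 fold change of 2.67 (SE 0.15, edgeR quasi-likelihood adjusted p = 8.82e-10). DNAJB6, which keeps polyglutamine proteins from aggregating, had 269 and 244 CPM in EPN24-Cas13d, against 68.7 and 72.4 CPM in EPN24, a log2 fold change of 1.86 (SE 0.14). DNAJB2, a ubiquitin-binding member studied mostly in neurons, had 193 and 189 CPM in EPN24-Cas13d, against 15.2 and 24.1 CPM in EPN24 (3.29, SE 0.20). DNAJB5, a close relative of DNAJB1, had 45.9 and 60.4 CPM in EPN24-Cas13d, against 12.5 and 18.0 CPM in EPN24 (1.80, SE 0.27, edgeR quasi-likelihood adjusted p = 4.07e-05). No EPN24 library of these 4 members reached the level of either EPN24-Cas13d library.

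DNAJB4, the other close relative of DNAJB1, was lower: it had 3 and 0 counts in EPN24-Cas13d, against 38 and 32 counts in EPN24. Over the summed counts the log2 ratio was -5.45, with an exact binomial 95% interval of -7.76 to -3.84. Such intervals cover counting error of independent counts only. The edgeR quasi-likelihood test gave DNAJB4 an adjusted p of 2.91e-05, and with ERCC scaling it was not called. DNAJB8, a testis-enriched member that suppresses aggregation, had 0 and 1 counts in EPN24-Cas13d, against 20 and 6 counts in EPN24, a log2 ratio of -5.60 with an interval of -10.96 to -3.00, and was not called with ERCC scaling. The axonemal member DNAJB13 had 1.68 and 2.01 CPM in EPN24-Cas13d, against 2.68 and 3.31 CPM in EPN24, and did not pass the test. Levels of both testis members lay within 3 times the density of olfactory receptor reads in EPN24.

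The 10 tested members of the endoplasmic reticulum divided into 4 higher, 5 lower and 1 uncalled, at a median of -0.68 and, with ERCC scaling, 8 higher and none lower. Without EPN24 replicate 2 the median was 0.16 over 9 members, DNAJB9 no longer being tested. With the GC trend removed 5 were higher and 1 lower at a median of 1.06, and with background subtracted 3 higher and 3 lower of 8 at 0.46. DNAJB12, a membrane member that takes part in the degradation of misfolded membrane proteins, had 194.5 and 202 CPM in EPN24-Cas13d, against 18.3 and 16.1 CPM in EPN24, a log2 fold change of 3.52 (SE 0.18, edgeR quasi-likelihood adjusted p = 2.11e-10). Its paralogue DNAJB14 had 0.962 and 1.76 CPM in EPN24-Cas13d, against 3.12 and 10.4 CPM in EPN24, a log2 fold change of -2.28 (SE 0.81, adjusted p = 0.0179) that turned to 1.09, not called, with ERCC scaling. DNAJB14 was not called without EPN24 replicate 2 or without EPN24-Cas13d replicate 1, and its EPN24 density was 0.681 times that of the olfactory receptor genes. DNAJC14, known for its part in receptor export, had 73.3 and 60.15 CPM in EPN24-Cas13d, against 8.92 and 14.2 CPM in EPN24 (2.53, SE 0.27). DNAJC1, which binds ribosomes at the membrane, had 36.3 and 28.9 CPM in EPN24-Cas13d, against 8.92 and 11.4 CPM in EPN24 (1.69, SE 0.31). DNAJC18, another membrane member, had 37.5 and 31.2 CPM in EPN24-Cas13d, against 17.4 and 6.63 CPM in EPN24 (1.50, SE 0.35) and was not called with background subtracted or the stricter filter. Its log2 fold change was 2.23 without EPN24 replicate 1 and 0.91 without EPN24 replicate 2. The EPN24-Cas13d libraries of all 4 higher members lay above both EPN24 libraries.

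The lumenal members were lower with TMM scaling, while with ERCC scaling DNAJC10, DNAJB11 and DNAJC3 were higher and DNAJB9 was not called. DNAJC10, a disulphide reductase of the degradation pathway, had 7.21 and 6.54 CPM in EPN24-Cas13d, against 29.9 and 40.7 CPM in EPN24, a log2 fold change of -2.35 (SE 0.32, edgeR quasi-likelihood adjusted p = 1.44e-05). DNAJB9, induced by the unfolded protein response, had 0 and 0 counts in EPN24-Cas13d, against 10 and 6 counts in EPN24 (edgeR quasi-likelihood adjusted p = 6.41e-04). At a floor of 3 counts in each EPN24-Cas13d library it was at least 4.95-fold lower in mean CPM. This bound takes the EPN24 mean as exact and counts as independent, and it does not take off background. The EPN24 density of DNAJB9 was 1.92 times that of the olfactory receptor genes. DNAJB9 had too few counts to be tested with background subtracted or without either EPN24 library. DNAJB11, a soluble partner of the HSP70 of the lumen, had 6.25 and 7.55 CPM in EPN24-Cas13d, against 12.5 and 25.6 CPM in EPN24 (-1.45, SE 0.42), and was not called without EPN24 replicate 2. DNAJC3, the lumenal member first known as an inhibitor of kinases of the translation block, had 5.77 and 6.54 CPM in EPN24-Cas13d, against 15.6 and 17.5 CPM in EPN24 (-1.42, SE 0.39). The ERCC-scaled log2 fold changes were 1.02 for DNAJC10, 1.93 for DNAJB11 and 1.93 for DNAJC3. With the GC trend removed these 3 were not called, at -0.011 for DNAJC10, 0.84 for DNAJB11 and 0.55 for DNAJC3.

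DNAJC5 was the member with the largest log2 fold change and ranked 46 of 20476 tested genes by it. This palmitoylated protein of synaptic and secretory vesicles, also called cysteine string protein alpha, is known for the release of misfolded proteins from cells. It had 729 and 718 CPM in EPN24-Cas13d, against 10.3 and 10.9 CPM in EPN24, and the means were 724 ± 8.14 CPM in EPN24-Cas13d and 10.6 ± 0.445 CPM in EPN24 (SD, n = 2 each). Its log2 fold change was 6.09 (SE 0.16, edgeR quasi-likelihood adjusted p = 1.27e-12), 9.45 with ERCC scaling and 5.23 with the stricter filter of 10 counts and 10 CPM. Its EPN24 level rested on 23 and 23 counts and was 2.62 times the olfactory receptor density, and with background subtracted the log2 fold change was 5.85. The gene lies on chromosome 20 from 63895126 to 63936031 (GRCh38), and its EPN24-Cas13d level rested on 3033.5 and 2852.5 counts. The clathrin-uncoating auxilin DNAJC6 and the endosomal DNAJC13 did not pass the test. DNAJC6 had 26.4 and 27.7 CPM in EPN24-Cas13d, against 21.4 and 18.9 CPM in EPN24, and DNAJC13 had 26.4 and 34.2 CPM in EPN24-Cas13d, against 37.0 and 33.6 CPM in EPN24, so that the groups overlapped for DNAJC13 only.

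Of the 5 tested mitochondrial members 2 were higher and 2 were lower. DNAJC11, found at the outer membrane and the cristae complex, had 184 and 170 CPM in EPN24-Cas13d, against 21.9 and 26.0 CPM in EPN24, a log2 fold change of 2.89 (SE 0.18, edgeR quasi-likelihood adjusted p = 1.96e-09), and the libraries did not overlap. The import motor members DNAJC19 and DNAJC15 were lower. DNAJC19 had 0.481 and 1.01 CPM in EPN24-Cas13d, against 8.92 and 11.4 CPM in EPN24 (-3.71, SE 0.73), and DNAJC15 had 2 and 0 counts in EPN24-Cas13d, against 12 and 12 counts in EPN24, a log2 ratio of -4.49 with an interval of -7.61 to -2.48. Neither was called with ERCC scaling or with the GC trend removed, where DNAJC19 lay at -1.59 and DNAJC15 at -2.25. The density of DNAJC15 was 0.910 times that of the olfactory receptor genes in EPN24 and 0.778 times in EPN24-Cas13d. Its reads thus did not exceed this measure of background, and DNAJC15 was not tested with background subtracted. DNAJC30, named in optic neuropathy, was not called, at 7.93 and 10.8 CPM in EPN24-Cas13d and 7.14 and 7.58 CPM in EPN24.

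Among the 5 members of the nucleus, the spliceosome and the ribosome 1 was higher, 3 were lower and 1 was not called, while with ERCC scaling 4 were higher and none lower. DNAJC9, which chaperones histones, had 38.7 and 34.7 CPM in EPN24-Cas13d, against 16.1 and 17.0 CPM in EPN24, a log2 fold change of 1.15 (SE 0.26, edgeR quasi-likelihood adjusted p = 0.00113), which was not called with background subtracted or the stricter filter. The splicing protein DNAJC8 had 15.9 and 14.6 CPM in EPN24-Cas13d, against 66.0 and 53.0 CPM in EPN24 (-1.96, SE 0.24, 1.38 with ERCC scaling). DNAJC2, which sits at the ribosome, had 3.61 and 3.02 CPM in EPN24-Cas13d, against 33.0 and 25.1 CPM in EPN24 (-3.12, SE 0.38, 0.21 with ERCC scaling). Both lay clear of background in EPN24, at 27.4 and 5.77 times the olfactory receptor density. DNAJC21, which acts in the maturation of the large ribosomal subunit, had 7.93 and 9.56 CPM in EPN24-Cas13d, against 12.0 and 25.6 CPM in EPN24 (-1.10, SE 0.41, edgeR quasi-likelihood adjusted p = 0.0225, 2.29 with ERCC scaling), and was not called without EPN24 replicate 2, EPN24-Cas13d replicate 1 or EPN24-Cas13d replicate 2. The splicing-related DNAJC17 did not pass the test.

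The other class C members followed no common direction. DNAJC24, which acts in diphthamide synthesis, had 2 and 0 counts in EPN24-Cas13d, against 23 and 27.5 counts in EPN24, a log2 ratio of -5.57 with an interval of -8.66 to -3.65. DNAJC28 had 0 and 0 counts in EPN24-Cas13d, against 6 and 12 counts in EPN24. It was at least 5.66-fold lower in mean CPM at the same floor per library, with the EPN24 mean again taken as exact and background not taken off. The EPN24 density of DNAJC28 was 2.21 times that of the olfactory receptor genes. DNAJC28 likewise was not tested with background subtracted or without either EPN24 library. DNAJC27, a small GTPase with a J domain, had 1.20 and 2.77 CPM in EPN24-Cas13d, against 8.03 and 7.58 CPM in EPN24 (-1.96, SE 0.67, 1.37 with ERCC scaling) and was not called without EPN24-Cas13d replicate 1 or with the GC trend removed. DNAJC4 was higher, at 22.1 and 31.2 CPM in EPN24-Cas13d and 9.37 and 6.63 CPM in EPN24 (1.73, SE 0.35), and shares 297 exon bases with NUDT22 on its strand. DNAJC7, an adaptor between HSP70 and HSP90, had 61.1 and 54.4 CPM in EPN24-Cas13d, against 37.9 and 57.8 CPM in EPN24, with groups that overlapped. The remaining uncalled members DNAJC16, DNAJC17 and DNAJC22 lay between 0.057 and 0.25 in log2 fold change.

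The 3 members that did not reach the filter on low counts were DNAJB7, with 3 and 0 counts in EPN24-Cas13d and 3.5 and 6.5 counts in EPN24, DNAJC12, with 0 and 0 counts in EPN24-Cas13d and 4 and 2 counts in EPN24, and DNAJC25, with 13 and 11 counts in EPN24-Cas13d and 6 and 5 counts in EPN24. DNAJC25 shares exons with a readthrough gene. Exons of 23 members overlap those of another gene, and the strand setting of the counting is not given in the sources used here, so reads of such pairs cannot be told apart; DNAJC9 shares 1819 bases with FAM149B1 and DNAJC11 shares 1419 with THAP3. Of the lower members 12 of 18 lay within 3 times the olfactory receptor density in EPN24, against 3 of 13 higher and 3 of 8 uncalled ones. With background subtracted, 11 of 33 members were higher and 12 were lower, beside 33.9% and 36.7% of all genes tested that way.

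Per length and in TPM, DNAJC5 was the most abundant member in EPN24-Cas13d, at a mean of 383 TPM, ahead of DNAJA3 at 155, DNAJB1 at 108, DNAJB12 at 101 and DNAJB2 at 92.5 TPM. In EPN24 the order began with DNAJC8 at 16.0 TPM (19.0 and 12.9 in its libraries) and DNAJA1 at 13.7 TPM, followed by DNAJA2 at 5.41, DNAJA3 at 4.66 and DNAJB1 at 4.58 TPM. The members together took 0.241% and 0.235% of protein-coding counts in EPN24-Cas13d, against 0.217% and 0.242% in EPN24, and these ranges overlap. Without DNAJC5 they took 0.178% and 0.172% in EPN24-Cas13d, against 0.214% and 0.239% in EPN24, a ratio of 0.772. DNAJC5 alone made up 26.3% and 26.7% of all member counts in EPN24-Cas13d, against 1.35% and 1.27% in EPN24. Class A made up 14.5% and 15.0% of member counts in EPN24-Cas13d, against 16.0% and 18.0% in EPN24, class B 37.7% and 37.1% in EPN24-Cas13d, against 27.6% and 28.8% in EPN24, and class C 47.7% and 48.0% in EPN24-Cas13d, against 56.4% and 53.2% in EPN24. Per 1000 ERCC counts the members had 129 and 130.4 counts in EPN24-Cas13d, against 3.81 and 3.61 in EPN24, a ratio of 34.9. With 2 libraries against 2, an exact permutation test cannot go below a two-sided p of 0.333, and no p is given for these shares.

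Fold change followed the base composition of the members. Across the 39 tested members the log2 fold change had a Pearson r of 0.70 and a Spearman rho of 0.74 with the GC content of the longest annotated transcript, beside 0.48 and 0.50 over 15424 protein-coding genes tested; members share the same 4 libraries and no p is given. The relation with coding GC was 0.68 and 0.71, with GC at the third codon position 0.65 and 0.70 and with that of the 3′ UTR 0.54 and 0.58 over 38 members. Exon length gave 0.085 and 0.14. Of the 16 members with at least 50% GC 11 were higher and 1, DNAJB8, was lower, while of the 23 below 50% GC only DNAJC9 and DNAJC18 were higher and 17 were lower. Over all tested protein-coding genes 57.0% of those with at least 50% GC were higher and 24.5% lower, and 18.0% of those below were higher and 60.5% lower. Once the trend with GC over all genes was removed, 18 members were higher, 8 were lower and 13 were not called, beside 34.6% and 34.9% of all genes. The 13 higher members stayed higher, and of the 18 lower members 8 stayed lower, 9 were not called and DNAJC21 was higher. A relation with GC remained among members after that removal, with r 0.41 and rho 0.50.

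**Figure D3:**
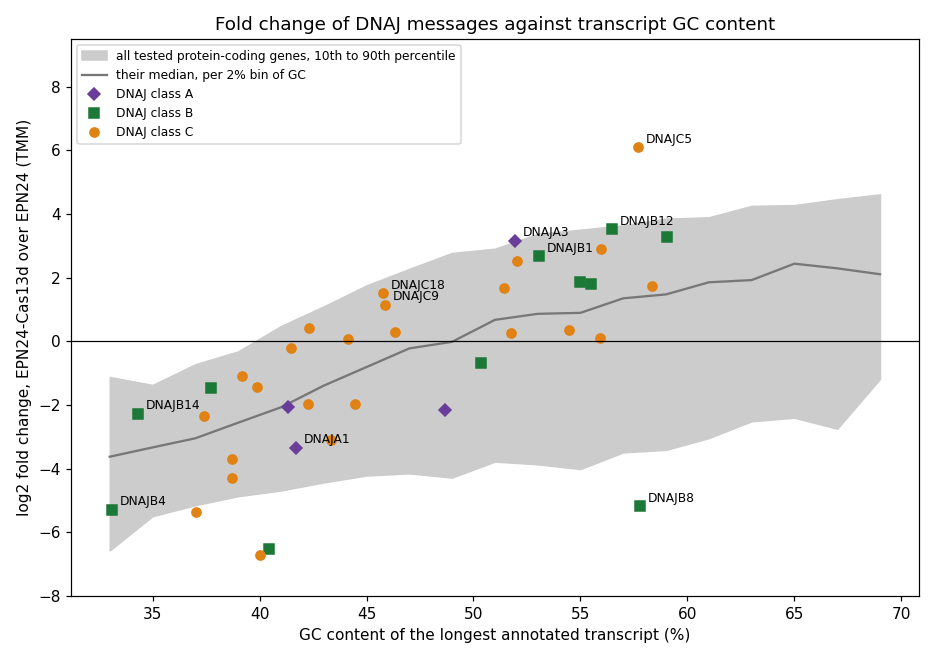
Log2 fold change, EPN24-Cas13d over EPN24 with TMM scaling, against the GC content of the longest annotated transcript for the 39 tested members, over the median (line) and the 10th to 90th percentile (band) of tested protein-coding genes. The 13 higher members had a median GC of 55.0% and the 18 lower ones 39.9%, DNAJC5 lies above the band, and with ERCC scaling 11 of the lower members had a positive value.

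The 3 pairs of relatives were chosen for their opposite directions, so that their sides are no result, and their base composition is given as a description. DNAJB12, at 56.5% transcript GC, had a log2 fold change of 3.52, and DNAJB14, at 34.3%, one of -2.28. DNAJB1, at 53.0%, had 2.67, and DNAJB4, at 33.1%, had -5.30. DNAJA3, at 52.0%, had 3.16, and DNAJA1, at 41.7%, had -3.35. With the GC trend removed the values were 2.95 for DNAJB12 and 0.43 for DNAJB14, 2.53 for DNAJB1 and -2.52 for DNAJB4, and 3.18 for DNAJA3 and -1.71 for DNAJA1. The 54-base stretches printed above had 59.3% GC in DNAJB12 and 40.7% in DNAJB14, 72.2% in DNAJB1 and 44.4% in DNAJB4, and 38.9% in DNAJA3 and 40.7% in DNAJA1. For DNAJA3 and DNAJA1 these stretches had like GC, while their whole transcripts differed, at 52.0% and 41.7%. Each stretch is a small part of its transcript, and a relation between its GC and the direction of a member was not tested.

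**Figure D4:**
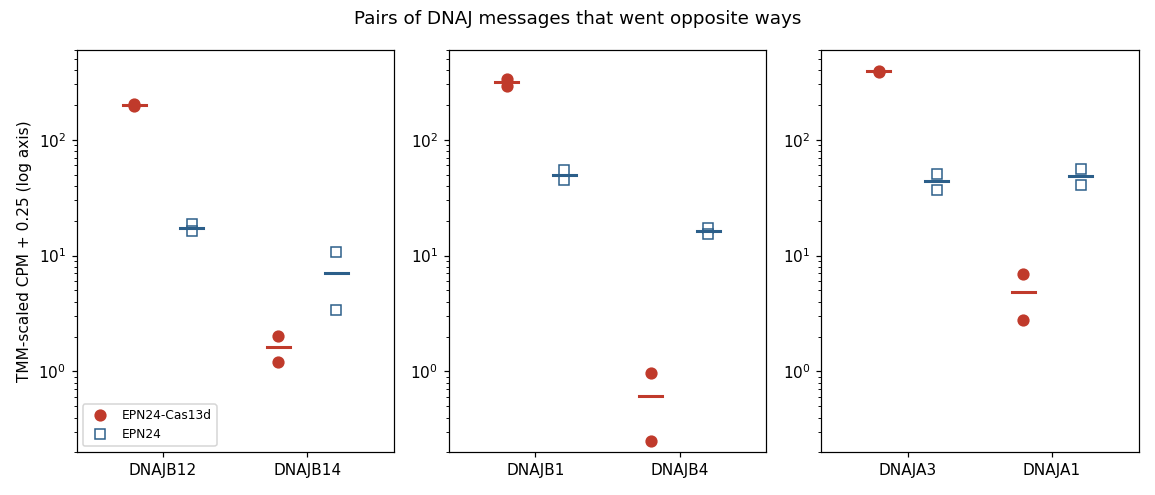
Level in each library, in TMM-scaled CPM plus 0.25 on a log axis, of the 3 pairs of relatives, with EPN24-Cas13d as red circles left of EPN24 as open squares and a bar at each mean. The pairs were chosen because the first member was higher in EPN24-Cas13d and the second lower with TMM scaling. With ERCC scaling DNAJB14 and DNAJA1 had values of 1.09 and 0.0051, neither called.

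The partners of DNAJ proteins were listed by role. Of the 15 tested members of the HSP70 family 7 were higher, 5 lower and 3 not called, at a median of -0.013, and with ERCC scaling 13 were higher and none lower. The constitutive cytosolic HSPA8 had 1637 and 1558 CPM in EPN24-Cas13d, against 122 and 144 CPM in EPN24 (3.59, SE 0.12, edgeR quasi-likelihood adjusted p = 4.09e-12), and the mitochondrial HSPA9, partner of DNAJA3, had 648 and 590 CPM in EPN24-Cas13d, against 68.7 and 94.7 CPM in EPN24 (2.93, SE 0.14). HSPA5, the lumenal HSP70 that the lumenal members serve, was named after its values were seen and had 12.0 and 11.6 CPM in EPN24-Cas13d, against 41.0 and 47.3 CPM in EPN24 (-1.90, SE 0.26, 1.46 with ERCC scaling). Other lumenal partners lay the other way: the HSP70 relative HYOU1 was higher at 3.15 (SE 0.17) and the exchange factor SIL1 at 2.04 (SE 0.34). Lumenal partners thus shared no direction. HSPA1A and HSPA1B are nearly identical, so the split of their reads is uncertain. Of 14 nucleotide exchange factors and regulators 8 were higher, 4 lower and 2 not called, with a median of 1.55, and with ERCC scaling 11 were higher and 0 lower. BAG6, a chaperone of membrane proteins, had 1090 and 1111 CPM in EPN24-Cas13d, against 75.4 and 68.2 CPM in EPN24 (3.94, SE 0.12), and HSF1, the heat-shock transcription factor, had 442 and 478 CPM in EPN24-Cas13d, against 32.1 and 30.8 CPM in EPN24 (3.87, SE 0.14). Of 6 J-domain proteins outside the naming rule 1 was higher, 3 were lower and 2 were not called, while with ERCC scaling 4 were higher and 0 lower. The clathrin-uncoating kinase GAK had 472 and 420 CPM in EPN24-Cas13d, against 48.2 and 53.5 CPM in EPN24 (3.13, SE 0.14), and the translocon protein SEC63 had 12.5 and 8.56 CPM in EPN24-Cas13d, against 49.1 and 36.9 CPM in EPN24 (-2.02, SE 0.29, 1.31 with ERCC scaling).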

How the data were processed

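Total RNA of filtered HEK293T supernatant was sequenced as 150-nt read pairs after 17 PCR cycles, per the labels' protocols. The submitters' processing notes name Trim Galore 0.6.7, STAR 2.7.10a, featureCounts 2.0.1, DESeq2 1.36.0 and hg38. The annotation, the strand setting and the treatment of reads with several hits are not given in those notes. The authors deposited estimated counts per gene, some with fractions, with no normalization and with a gene length in bp (another unit). The authors' deposited table of DESeq2 results holds a mean normalized count (signal), log2 fold changes, a Wald statistic (score) and p-values. A single broken row, spread over 5 lines, was left out.

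Rounded counts entered edgeR 4.0.16 (R 4.3.3). There filterByExpr kept 20476 genes, TMM scaling left out ERCC rows, and the robust quasi-likelihood test used Benjamini-Hochberg adjustment at 0.05. Standard errors were approximated from F, as the size of the log2 fold change over its square root. CPM come from rounded counts and ± values are SDs. The labels name no molecular identifiers, and 63.8% of whole member counts above 0 were even, as when mates are counted apart. Intervals cover at most counting error and take counts as independent, so they may be too narrow. A count of 0 allows up to 3 counts, or 0.721 to 1.42 CPM, if counts are independent. Groups came from the sample titles.

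Members and lists were chosen with earlier results of these data known. Values are given for all class A members, the extremes of classes B and C among called members (4 and 6 on each side), members with a mean of at least 100 CPM, untested members and the 2 smallest p of each partner list; further members were added to complete the role groups. GC content comes from GENCODE 29 transcripts, found for 97.3% of tested genes. Alternatives covered DESeq2 size factors, ERCC totals, 2 other filters, the DESeq2 1.42.0 Wald test, limma-voom (limma 3.58.1), a replicate block, each library left out, a GC trend removed and background subtracted. In a simulation with these library sizes over 20476 genes, 200 genes were changed, as many up as down. There 28% of the 2-fold changes and 67% of the 4-fold changes were found, and 5 calls were false. In the data 32.6% of tested genes were higher and 48.2% lower, so the simulation does not give the error rate of this comparison.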

Additional observations from a re-analysis of the deposited data

How the results depend on the processing

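Of 482 member values under alternatives 397 kept both direction and call. DESeq2 size factors changed no call among 39 members, and the DESeq2 Wald test lost DNAJB14, DNAJC21 and DNAJC27. Deviations of same-numbered libraries from their group means had a correlation of -0.0041 over the tested genes. Counting noise weakens such a correlation, so it cannot decide whether these libraries were paired. With a replicate block 13 members were higher and 18 lower, as without it, and no partner list changed. Against 13 higher and 18 lower members and a median of -0.22, ERCC totals gave 27, 0 and 3.14, the GC trend removed gave 8 lower and a median of 0.55, and the filter of 10 counts and 10 CPM gave a median of -0.58. Over all genes tested the median was 2.38 with ERCC totals, -0.26 with the GC trend removed and 0.015 with that filter. Leaving out each library in turn gave medians of -0.31 to 0.064 (the last without EPN24 replicate 2, and -0.0055 without EPN24-Cas13d replicate 1). The medians over all genes moved as well. They were -1.17 and -1.15 without EPN24-Cas13d replicates 1 and 2, and -0.42 and -0.50 without EPN24 replicates 1 and 2. The share of members had a log2 ratio of 0.051 over protein-coding counts and 1.25 over all gene counts. HSP70 genes numbered 13 higher and 0 lower with ERCC totals, 3 lower with the GC trend removed or background subtracted, and 3 to 5 lower with a library left out (3 without EPN24-Cas13d replicate 2). Exchange factors numbered 0 lower with ERCC totals and with the GC trend removed. The other J-domain genes numbered 4 higher and 0 lower with ERCC totals, 2 higher and 1 lower with the GC trend removed, 2 higher with background subtracted, and 1 to 2 lower with a library left out (1 without EPN24-Cas13d replicate 2 or EPN24 replicate 1). The causes were not tested.

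With ERCC totals these members turned direction: DNAJA1 0.0051, DNAJA2 1.30, DNAJA4 1.14, DNAJB11 1.93, DNAJB13 2.64, DNAJB14 1.09, DNAJC2 0.21, DNAJC3 1.93, DNAJC8 1.38, DNAJC10 1.02, DNAJC13 3.14, DNAJC21 2.29 and DNAJC27 1.37, all log2 fold changes. With the GC trend removed DNAJB11 turned to 0.84, DNAJB14 to 0.43, DNAJC3 to 0.55, DNAJC13 to 1.48, DNAJC17 to -0.39 and DNAJC21 to 0.99. The stricter filter turned DNAJC6 to -0.44, DNAJC7 to -0.58, DNAJC16 to -0.80 and DNAJC17 to -0.75. Background subtraction turned DNAJC6 to -0.12, DNAJC7 to -0.35, DNAJC16 to -0.14, DNAJC17 to -0.33 and DNAJC30 to -0.13, and no filter turned DNAJC13 to 0.14. Among uncalled members, values with each library left out in turn crossed 0 for DNAJC7 (-0.14 to 0.53), DNAJC13 (-0.36 to 0.021), DNAJC16 (-0.27 to 0.43), DNAJC17 (-0.21 to 0.34) and DNAJC22 (-0.21 to 0.64). Depth limits the members under about 10 counts in EPN24-Cas13d, whose fold changes rest on few reads.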

Other observations

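Loci related to the family were counted apart from its members. The 28 DNAJ pseudogenes summed to 11 and 14.5 counts in EPN24-Cas13d and to 66 and 59 counts in EPN24, and 1 of them, DNAJA1P3, was tested, with 0 and 0 counts in EPN24-Cas13d and 12 and 8 counts in EPN24 (lower, edgeR quasi-likelihood adjusted p = 3.93e-04). DNAJC5B, a testis relative of DNAJC5, had 2 and 0 counts in EPN24-Cas13d and 9 and 8 counts in EPN24 (lower, adjusted p = 0.00268). The other relative, DNAJC5G, had 4 and 4 counts in EPN24-Cas13d and 6 and 7 counts in EPN24 and did not pass the test. The divergent transcript DNAJC3-DT had 0 and 0 counts in EPN24-Cas13d and 10 and 12 counts in EPN24 (lower, edgeR quasi-likelihood adjusted p = 2.97e-04). The readthrough DNAJC25-GNG10 had 3 and 3 counts in EPN24-Cas13d and 8 and 11 counts in EPN24 (lower, adjusted p = 0.00867). All of these directions are those of TMM scaling, and with ERCC scaling none of these 5 loci was called, at adjusted p between 0.0635 and 0.701.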
